A study of Sus scrofa with 8 samples.

Results

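The genes examined here are markers of the erythroid lineage, the cells that make red blood cells: ALAS2, AHSP, SLC4A1, EPB42, KLF1, GATA1, HEMGN, TRIM10 and RHAG. They were chosen by gene name, and the question was whether a library rich in bone transcripts, control 4, also carried transcripts of red marrow. Of the 9 names, 8 matched an identifier among the 22516 genes of the files, and HEMGN was not analysed here. All 8 matched genes had at least 1 count and were tested. RNA-seq libraries were made from the olfactory epithelium (OE) of 4 sows in estrus, 8 months old, offspring of Landrace boars and Rongchang sows. The nasal cavity of 2 sows was sprayed with Boarmate, a product whose main active ingredient is the boar pheromone androstenone (androstenone treatment group), and 2 sows received no solution (control group). The OE of the left and the right side was taken 30 min later, which gave 4 libraries per group. The labels do not tell which libraries share a sow. Libraries were therefore treated as replicates, and p-values measure the spread between libraries of only 2 animals per group.

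Red blood cells arise in the marrow of bones from nucleated erythroblasts, which lose their nucleus and enter the blood as reticulocytes. The transcription factors GATA1 and KLF1 act while the nucleus is present. Reticulocytes still hold messenger RNA for globin and other proteins of the mature cell, so transcripts of that kind also arrive in a tissue with its blood. The nasal cavity is lined by thin bones, on which the OE lies.

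Control 1 was shallow in the deposited counts, with 4177968 rounded counts, and the other 7 libraries held 81579983 to 100685797. The study lists a number of clean reads for its Control 1 within the range of its other libraries. The cause of this difference was not tested, and depth below means the sum of the deposited counts. A floor of 3 counts was worth 0.718 CPM (counts-per-million) in control 1 and at most 0.0368 CPM elsewhere. In control 4, 29.4% of all counts fell on its 10 most abundant genes, against 6.57% to 9.02% in the other libraries. Among markers of olfactory neurons, OMP and CNGB1 matched no identifier, RTP2 had 0 counts in every library, and CNGA2 lay between 0.279 and 5.01 TPM (transcripts-per-million, a level scaled for transcript length). Others were higher, with STOML3, the most abundant, at 34.9 to 190 TPM and ANO2 at 3.18 to 50.4 TPM. The 11 measured genes of this list summed to 82.8 TPM in control 4 and to 98.7 to 218 TPM elsewhere. FOXJ1, a regulator of motile cilia, lay between 73.2 and 531 TPM, with its highest values in androstenone 2, androstenone 1 and control 3. Intervals and floors below account for counting error alone, because PCR copies are not separate molecules. In bulk tissue, fewer cells of a type and less RNA per cell cannot be told apart.

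The 8 erythroid genes were low in the OE. Summed, they made up 4.82, 6.98, 5.47 and 6.56 TPM in controls 1 to 4 and 3.26, 3.23, 3.61 and 5.45 TPM in androstenone 1 to 4. By mean TPM over the 8 libraries the order was ALAS2 (1.34), EPB42 (0.939), TRIM10 (0.830), AHSP (0.556), RHAG (0.523), GATA1 (0.506), SLC4A1 (0.119) and KLF1 (0.107), and the ranges of neighbours in this order overlapped for every pair. The share of the 21318 tested genes with a lower mean TPM was 10.6% for KLF1 and 30.4% for ALAS2, the ends of the range. Beta globin, HBB, had a mean of 79.0 TPM, above 92.8% of the tested genes.

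ALAS2 encodes the erythroid form of the enzyme that starts haem synthesis. It lies on chromosome X of Sscrofa11.1 from 47871519 to 47896041 (RefSeq annotation). Its level was 0.903, 1.49, 1.40 and 3.18 TPM in controls 1 to 4 and 0.456, 0.375, 1.21 and 1.73 TPM in androstenone 1 to 4. Control 4 was the highest library and androstenone 1 and 2 the lowest, and the groups overlapped. The values rest on 5 counts in control 1 and on 48 to 311 in the other libraries.

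AHSP, on chromosome 3 from 17059340 to 17060343, encodes the chaperone that holds free alpha globin in solution. It was at 0, 0.902, 0.495 and 1.35 TPM in controls 1 to 4, and the 0 of control 1 is not informative at its depth. In androstenone 1 to 4 it was at 0.123, 0.0999, 0.487 and 0.989 TPM. The libraries high and low in AHSP were those high and low in ALAS2, with control 4 and androstenone 4 on top.

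The globins were read beside them, since AHSP and ALAS2 serve haemoglobin. HBB (chromosome 9, 4800683 to 4801941) was at 31.9, 65.0, 87.2 and 205 TPM in controls 1 to 4 and at 35.0, 18.0, 97.3 and 92.6 TPM in androstenone 1 to 4. HBM, a globin of the alpha cluster on chromosome 3, was at 0, 2.40, 0.890 and 2.95 TPM in the control libraries and at 0.166, 0.218, 1.70 and 1.71 TPM in the androstenone libraries. Both were highest in control 4 and, apart from the shallow control 1, lowest in androstenone 1 and 2. HBM lies within the span of NPRL3, which was at 14.4 to 21.5 TPM in the 8 libraries, and the sources used here do not say whether the counting used strand. HBQ1, at 1.41 to 4.79 TPM, had its 3 highest values in androstenone 2, control 2 and androstenone 1, an order unlike that of HBB. HBZ, an embryonic globin, had 2 counts in the control group, both in control 4, and 3 to 10 counts in each androstenone library. Names of alpha globin and of the other beta-like globins had no match, so these genes were not analysed here.

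SLC4A1, EPB42 and RHAG encode proteins of the red cell membrane: the anion exchanger band 3, protein 4.2, which binds to it, and the Rh-associated glycoprotein. SLC4A1 (chromosome 12, 18957813 to 18975266) was at 0.270, 0.211, 0.124 and 0.0785 TPM in controls 1 to 4. In androstenone 1 to 4 it was at 0.0467, 0.0583, 0.1004 and 0.0666 TPM. Controls 1 and 2 were highest, on 3 and 44 counts, and control 4 lay below androstenone 3. RHAG (chromosome 7, 43704152 to 43730944) followed the same order at its upper end, with 0.962, 0.885, 0.581 and 0.323 TPM in the control libraries and 0.256, 0.352, 0.363 and 0.464 TPM in the androstenone libraries. Control 4 was the lowest control library for both genes.

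EPB42 (chromosome 1, 128231863 to 128253696) varied least of the 8 genes among the 7 deeper libraries, with 2.23-fold between the highest and the lowest. It was at 1.09, 1.39, 1.06 and 0.624 TPM in controls 1 to 4 and at 1.01, 0.702, 0.796 and 0.842 TPM in androstenone 1 to 4, and control 4 was the lowest of all libraries. Its span overlaps CCNDBP1, which was at 11.2 to 13.8 TPM.

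KLF1 and GATA1 encode the transcription factors of the nucleated stages. KLF1 (chromosome 2, 66144767 to 66148500) was at 0.223, 0.286, 0.0552 and 0.0377 TPM in controls 1 to 4 and at 0.00938, 0.0963, 0.0624 and 0.0873 TPM in androstenone 1 to 4. These values rest on 1 to 24 counts per library, and control 4 had 3. Control 2 stood highest, and control 4 was the lowest of the control libraries.

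GATA1 (chromosome X, 42898431 to 42905939) was at 0.257, 1.09, 0.499 and 0.523 TPM in the control libraries and at 0.239, 0.345, 0.289 and 0.808 TPM in the androstenone libraries. Control 2 and androstenone 4 were highest, and control 4 lay close to control 3. GATA1 is also used by mast cells and eosinophils. The summed level of 5 mast cell genes was 2.89 to 52.0 TPM over the 8 libraries. That of 4 eosinophil genes was 39.8 to 232 TPM, most of it from ALOX15, at 36.0 to 221 TPM. The eosinophil peroxidase gene EPX was at 0 in control 1 and androstenone 4 and at most 0.144 TPM elsewhere. IL5RA and CCR3 were at most at 0.660 and 9.73 TPM. The 2 libraries highest in GATA1 were also the highest in the B cell gene PAX5, at 52.3 and 60.3 TPM. The part of these cells in the level of GATA1 was not tested.

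TRIM10, a RING finger gene known from terminal erythroid differentiation, lies in the major histocompatibility region (chromosome 7, 22718000 to 22731445), and its span overlaps TRIM15. It was at 1.11, 0.725, 1.27 and 0.446 TPM in controls 1 to 4 and at 1.12, 1.20, 0.308 and 0.461 TPM in androstenone 1 to 4. Its 3 highest libraries were control 3, androstenone 2 and androstenone 1, which are the 3 highest in the cilia regulator FOXJ1, and control 4 was low in both. The 7 measured ciliated cell genes together lay between 384 TPM in control 4 and 2275 TPM, and their part in the level of TRIM10 was not tested. TRIM15 was at 0.496 TPM in control 4 and at 0.784 to 2.69 TPM elsewhere.

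**Figure D1:**
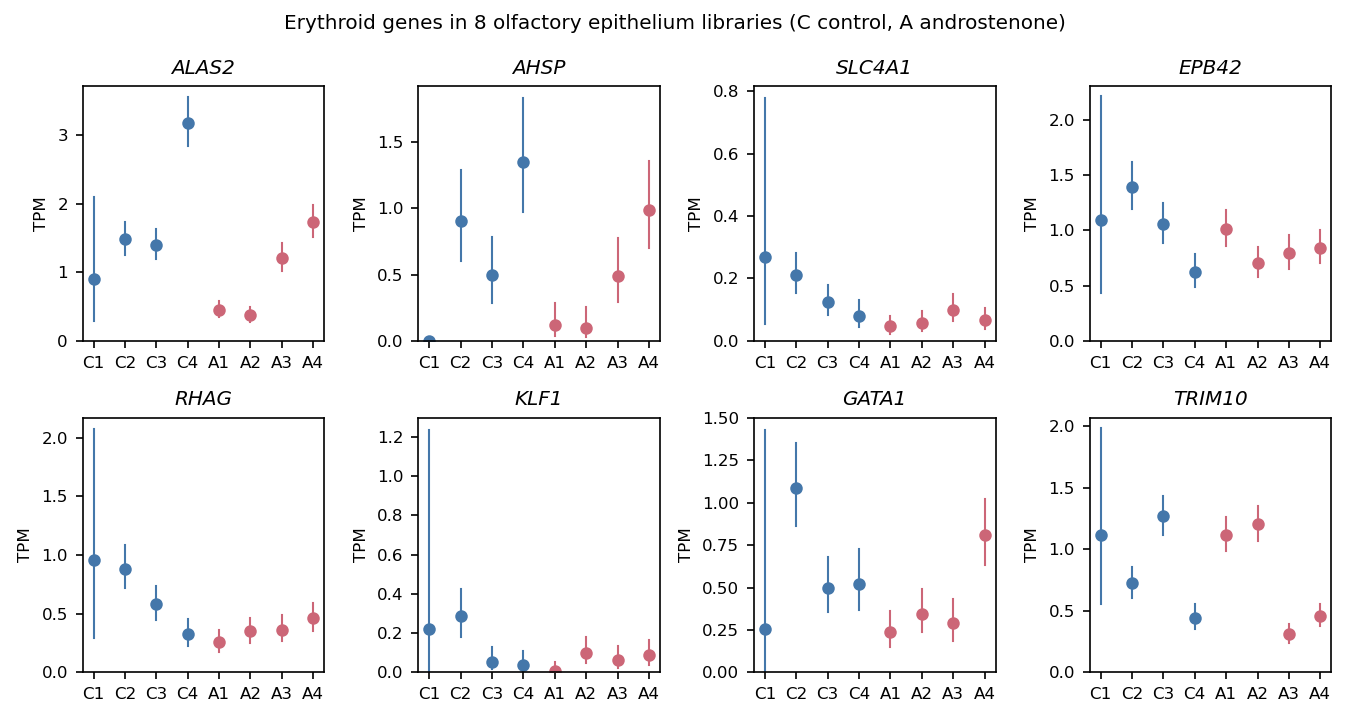
Level of each erythroid gene in TPM (linear axis from 0) in controls 1 to 4 (C, blue) and androstenone 1 to 4 (A, red). Points are libraries and lines are 95% exact Poisson intervals of the count (counting error only, none drawn for the 0 of AHSP in control 1). ALAS2 and AHSP were highest in control 4, at 3.18 and 1.35 TPM, whereas EPB42 was lowest there, at 0.624 TPM.

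The question of marrow was then put to control 4, which was singled out by its COL1A1 level, so that its bone transcripts are a description and not a result. COL1A1, the main collagen of bone, was at 32876 TPM in control 4 and at 157 to 3686 TPM in the other 7 libraries. All 15 measured genes of osteoblasts and bone matrix and all 10 of osteoclasts, the cells that resorb bone, were highest in control 4. Summed, the bone genes were at 119679 TPM there and at 1069 to 11767 TPM elsewhere. The osteoclast genes were at 7626 TPM in control 4 and at 251 to 941 TPM elsewhere. Control 2 was second for the bone sum, at 11767 TPM, followed by androstenone 2 at 3614 TPM. For the osteoclast sum control 3 was second, at 941 TPM, and control 2 was at 329 TPM. The bone genes took 24.4% of all counts of control 4 and 0.203% to 3.31% of those of the other libraries. COL1A2 and SPARC were at 37050 and 21990 TPM in control 4, against at most 3774 and 3640 TPM elsewhere. CTSK, ACP5 and MMP9, which encode enzymes of the osteoclast, were at 3651, 2806 and 851 TPM, against at most 476, 338 and 82.3 TPM.

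The erythroid genes did not follow as a group in control 4. Their sum there was 6.56 TPM, below the 6.98 TPM of control 2 and 1.36 times the median of the other 7 libraries. The bone sum was 37.2 times and the osteoclast sum 23.2 times the median of the same 7. Control 2, second in bone genes, had the highest erythroid sum in TPM. It was the highest library for EPB42, KLF1 and GATA1, but not for the other erythroid genes. Whether this goes with its bone transcripts was not tested. Of the 8 genes, 2 (ALAS2 and AHSP) were highest in control 4, and over all tested genes control 4 was the highest library for 12.5%. With CPM scaled by the trimmed mean of M-values (TMM), which corrects for the counts taken by a few genes, the same 2 were highest there, against 20.1% of all genes. On that scale the erythroid sum was highest in control 4, at 8.84 CPM against 4.82 to 7.92 CPM elsewhere, and per library total it was highest in control 2, at 8.90 CPM (95% exact interval 8.26 to 9.57), with 6.07 CPM (5.59 to 6.59) in control 4. The erythroid sum amounted to 588 counts in control 4, against 23630660 for the bone genes.

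The 8 genes split by role in control 4. ALAS2 was at 2.63 times and AHSP at 2.77 times the median of the other 7 libraries, and HBB and HBM were at 3.15 and 3.32 times. GATA1 was at 1.52 times that median and within the range of the others. SLC4A1, RHAG, EPB42, KLF1 and TRIM10 were at 0.783, 0.697, 0.618, 0.431 and 0.400 times. These ratios have no replicate check, because control 4 is 1 library. With TMM-scaled CPM they were 2.94 and 3.48 for ALAS2 and AHSP and 0.504 to 0.902 for the 5 genes below the median.

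**Figure D2:**
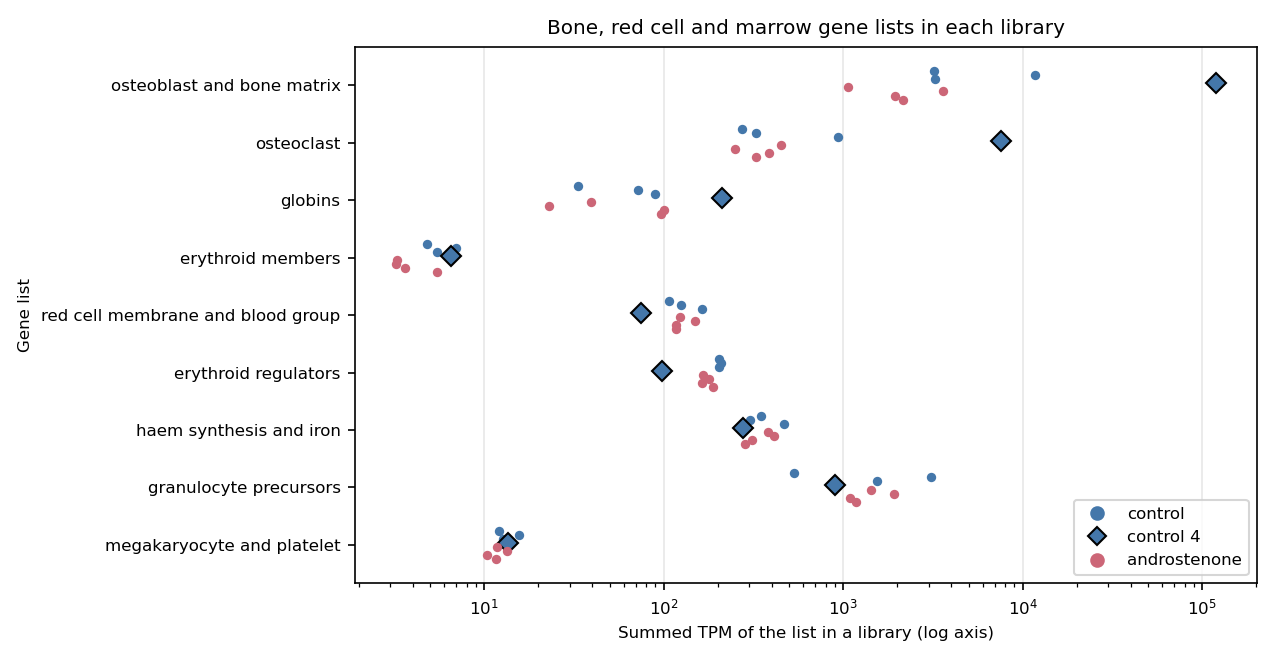
Summed TPM (log axis) of each gene list in each library, with control libraries in blue, androstenone libraries in red and control 4 as a diamond. Control 4 stands apart for bone genes (119679 TPM) and osteoclast genes (7626 TPM) and is highest for globins (211 TPM). Its erythroid sum of 6.56 TPM lies below that of control 2, the library second in bone genes.

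Setting each gene against HBB within the same library removes the scaling between libraries. Per 1000 HBB counts, ALAS2 had 37.1, 26.1 and 25.2 counts in controls 2 to 4 and 21.2, 34.0, 20.1 and 30.4 in androstenone 1 to 4. In control 1 it had 45.9 (95% exact interval 14.6 to 110). ALAS2 thus kept within 1.84-fold over the 7 deeper libraries, although HBB itself spanned 11.4-fold in TPM there. AHSP lay between 1.77 and 6.98 per 1000 HBB counts and HBM between 1.41 and 9.87 in these 7 libraries, and control 4, at 3.32 and 3.89, lay inside both ranges.

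The other erythroid genes did not keep such a ratio. Per 1000 HBB counts, the 7 deeper libraries spanned 8.20-fold for SLC4A1, 12.3-fold for RHAG, 12.9-fold for EPB42, 29.2-fold for KLF1, 7.53-fold for GATA1 and 30.7-fold for TRIM10. For each of these 6 genes control 4 had the lowest ratio and androstenone 2 the highest, which are the libraries with the most and the least HBB, so a gene that does not follow HBB takes this order from the denominator. In TPM, control 4 was the lowest of the 7 deeper libraries for EPB42, while 3 of the other 6 lay below it for SLC4A1, 4 for GATA1 and 1 each for KLF1, RHAG and TRIM10. KLF1 had 0.243 counts per 1000 HBB counts in control 4 (95% exact interval 0.0501 to 0.711) and 5.78 (3.70 to 8.61) in control 2. In control 3 and androstenone 1, 3 and 4 it had 0.354 to 1.24, with intervals that overlapped that of control 4. RHAG had 2.59 in control 4 and 22.4 in control 2.

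**Figure D3:**
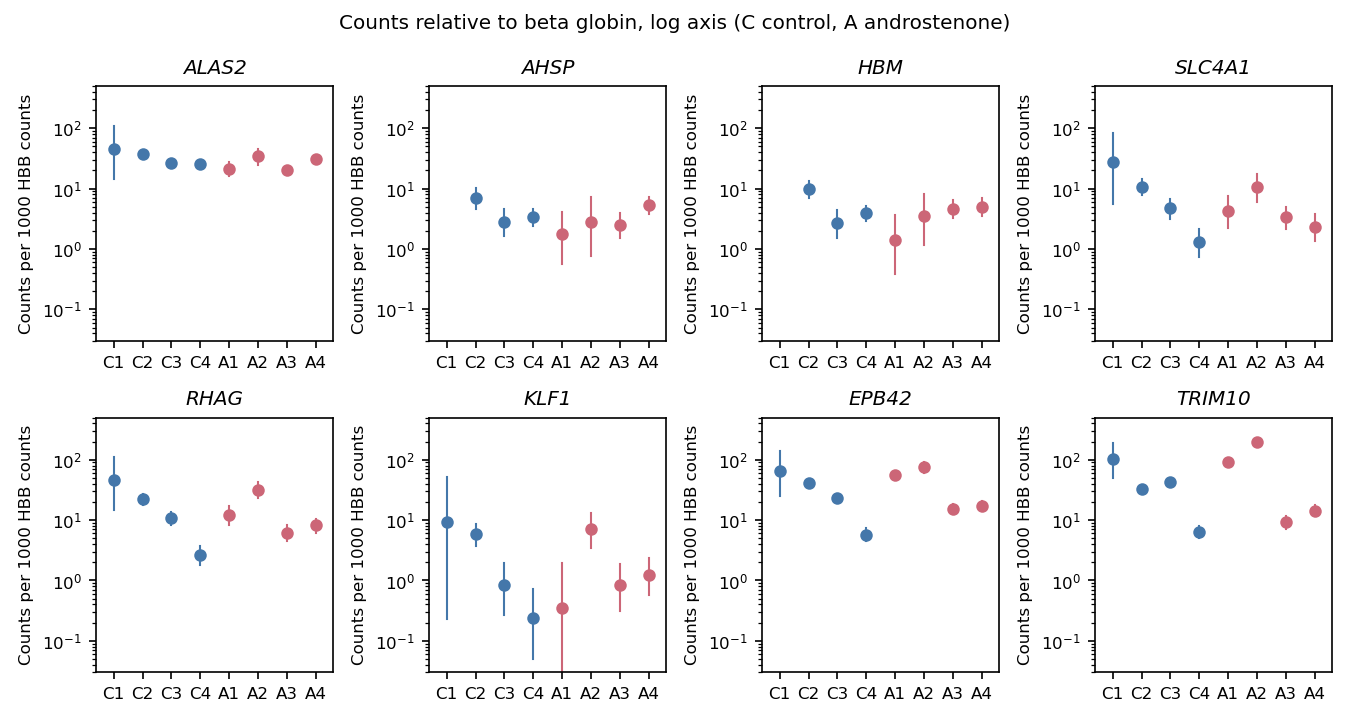
Counts per 1000 HBB counts (log axis) of HBM and of the erythroid genes other than GATA1, by library, with 95% exact binomial intervals that cover counting error only. ALAS2 stays between 20.1 and 37.1 in the 7 deeper libraries, while KLF1, RHAG, SLC4A1, EPB42 and TRIM10 are lowest in control 4, and libraries with 0 counts are not drawn.

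Genes of the rest of red cell formation were then counted by list, in TPM. Of 12 genes of haem synthesis and iron supply, 1 was highest in control 4: TFRC, the transferrin receptor, at 35.7 TPM against 12.6 to 22.5 TPM elsewhere. UROS, PPOX and UROD, the most abundant of that list, were at 57.7, 48.6 and 36.6 TPM in control 4, within or below the range of the other libraries. Of 14 genes of the red cell membrane and blood groups, GYPC, EPB41 and KEL, the most abundant, were at 38.4, 21.8 and 5.10 TPM in control 4, and none of these 3 was highest there. KEL reached 73.6 TPM in androstenone 2, 42.3 TPM in androstenone 1 and 31.5 TPM in control 3 and stayed at or below 5.10 TPM in the other 5 libraries. Of 13 regulators, TAL1 (7.24 TPM) and SOX6 (3.33 TPM) were highest in control 4, while LMO2 and MYB, at 34.9 and 8.68 TPM, were lowest there. MYB was highest in androstenone 2, control 3 and androstenone 1, the libraries highest in FOXJ1. The third most abundant regulator, LYL1, was at 12.5 TPM in control 4 and at 8.85 to 39.1 TPM elsewhere.

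Other cells of marrow were examined in the same way, again in TPM. With TMM-scaled CPM, on which control 4 was the highest library for more genes, 2 of 6 genes of stem and progenitor cells (CD34 among them), 2 of 5 mast cell genes (MS4A2 beside HPGDS), 2 of 12 of haem synthesis and iron (UROD beside TFRC) and 3 of 13 regulators (XPO7 added) were highest there. None of 10 measured granulocyte precursor genes was highest in control 4, where MPO, the myeloperoxidase gene, had 0 counts, as it had in androstenone 2. LTF, S100A12 and S100A8, the most abundant of that list, were at 781, 96.3 and 8.51 TPM in control 4 and reached 3006, 1142 and 169 TPM in other libraries. Of 8 megakaryocyte and platelet genes, GP9 (5.51 TPM against 1.16 to 2.59 TPM) and TREML1 (0.0540 TPM) were highest in control 4, and ITGA2B, at 3.76 TPM, was not. Of 9 genes of B cell precursors 1, EBF1 (12.2 TPM), was highest in control 4, and CD79A was at 46.6 TPM there, the lowest of all libraries. None of 6 genes of haematopoietic stem and progenitor cells was highest in control 4. PROM1, at 97.8 TPM there, was highest in control 3, androstenone 2 and androstenone 1, which were also the libraries highest in FOXJ1. Of 6 stroma and adipocyte genes, LEPR, LPL and FABP4 were highest there, and CXCL12, at 17.9 TPM, was not. Proliferation genes, which dividing erythroblasts use, were at 52.7 TPM summed over 9 genes in control 4, the lowest of all libraries. Elsewhere this sum ran from 70.6 TPM in control 3 to 217 TPM in control 2. TYMS was at 7.55 TPM in control 4. Leukocyte genes of blood were also lowest there, at 99.9 TPM against 184 to 394 TPM. LYZ made up a large part of this sum, at 45.8 TPM in control 4 and up to 319 TPM, in androstenone 2. PTPRC was also lowest in control 4, at 28.4 TPM, and CD14, at 8.36 TPM, was not. The part of other cells in the level of LYZ was not tested. HPGDS alone of 5 mast cell genes was highest in control 4, at 9.18 TPM against at most 1.47 TPM, and GATA2 was at 7.98 TPM. None of 4 eosinophil genes was, with ALOX15 at 36.0 TPM.

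Androstenone treatment was compared with control by edgeR's quasi-likelihood test over all 8 libraries. The study's cutoff asks for a log2 fold change of 1 or more in size with an unadjusted p under 0.05. Of all tested genes 6.42% passed it, 4.38% as lower in the androstenone treatment group and 2.04% as higher. Of the 8 erythroid genes 1 passed, SLC4A1, as lower. Control libraries had a mean of 0.407 ± 0.173 TMM-scaled CPM and androstenone libraries one of 0.179 ± 0.0613 (SD, n = 4 each). The log2 fold change was -1.07 (SE 0.46, unadjusted p = 0.0459 and adjusted p = 0.437 by Benjamini-Hochberg in edgeR's quasi-likelihood test). The groups overlapped, and the two-sided exact permutation test on log2(TPM + 0.1) gave p = 0.0571, where 4 against 4 libraries allow no p below 0.0286. The call was lost without control 1 (unadjusted p = 0.0899), control 2 (0.128), androstenone 1 (0.112), androstenone 2 (0.0957) or androstenone 4 (0.0894), and it held without control 4 (0.0285), in the same edgeR test.

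The other 7 erythroid genes had log2 fold changes between -0.92 and -0.02. ALAS2 had means of 2.25 ± 1.64 and 1.22 ± 0.807 CPM (SD, n = 4 each) in control and androstenone libraries, and its log2 fold change was -0.92 (SE 0.62, adjusted p = 0.574 in edgeR). RHAG, at 0.800 ± 0.267 and 0.473 ± 0.0950 CPM (SD, n = 4 each), had -0.71 (SE 0.36, adjusted p = 0.484 in edgeR). AHSP, KLF1 and GATA1 had -0.90, -0.92 and -0.50, with SE of 0.87, 0.84 and 0.52. EPB42 and TRIM10 had -0.17 and -0.02, with SE of 0.28 and 0.51. All 8 log2 fold changes were below 0, with a median of -0.81 against -0.02 over all tested genes, and the 8 are not independent, since several follow the same libraries. In 0 of the 8 did the groups fail to overlap in TPM, and over all tested genes they failed to in 5.39%. After adjustment over all genes 0 of the 8 passed in edgeR's quasi-likelihood test, the likelihood ratio test, DESeq2 or limma voom, and 1 had an unadjusted p below 0.05 in the first of these.

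For the genes of haemoglobin the difference was smaller without control 4. The log2 fold change was -0.29 for ALAS2, -0.29 for AHSP and 0.15 for HBB, against -0.92, -0.90 and -0.70 with it. For KLF1 and RHAG it went the other way, to -1.25 and -0.91 from -0.92 and -0.71. RHAG then had an unadjusted p of 0.0306 in edgeR's test but stayed short of the fold threshold. Without control 2 the value for KLF1 was 0.11, so its direction rests on that library.

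**Figure D4:**
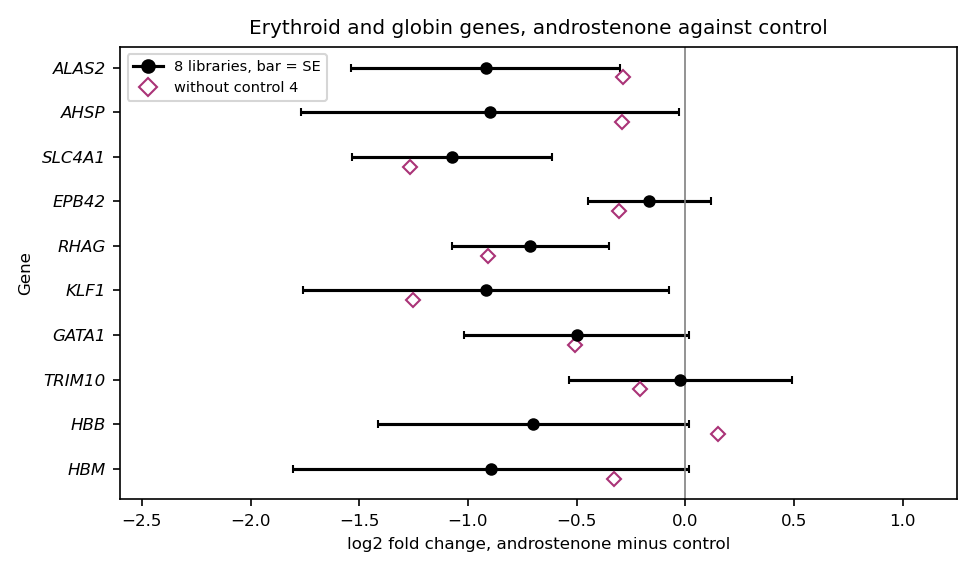
log2 fold change of androstenone minus control for the 8 erythroid genes, HBB and HBM from edgeR (black points, bars are SE) and without control 4 (open diamonds). SLC4A1 at -1.07 passes the unadjusted cutoff, and HBB moves from -0.70 to 0.15 without control 4.

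In the lists of red cell formation few genes passed the cutoff. EPOR, the erythropoietin receptor gene, was higher in the androstenone treatment group, at 0, 0.212, 0.414 and 0.221 TPM in controls 1 to 4 and 0.882, 0.873, 0.738 and 0.595 TPM in androstenone 1 to 4. The groups did not overlap, the log2 fold change was 1.69 (SE 0.49, unadjusted p = 0.00818 and adjusted p = 0.393 in edgeR), and the call held with each library left out in turn. Control 1 had 0 counts of EPOR, which at its depth says little, and without it the log2 fold change was 1.53. SOX6 passed as lower, with a log2 fold change of -1.12 (adjusted p = 0.416 in edgeR), which lost the call without control 4 (-0.75), androstenone 1 (-1.06, unadjusted p = 0.0514 in edgeR) or androstenone 2 (-0.99). Among the globins HBZ passed as higher, with 22 counts against 2. Scaled by depth the ratio was 8.05 (95% exact interval 1.98 to 70.6, for counting error), and the call was lost without any 1 of 7 libraries, control 4 being the exception. Of the 12 genes of haem synthesis and iron and the 14 of the membrane and blood groups 0 passed in the same test, with median log2 fold changes of 0.11 and -0.07, and CPOX alone had an unadjusted p under 0.05. Without control 1 or control 3 the membrane list had 1 call. For the 4 globins and the 13 regulators the medians were -0.16 and -0.02.

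The bone and osteoclast lists are given as a description only, since control 4, a control library, was singled out by the bone gene COL1A1. With it, 15 of 15 bone genes and 9 of 10 osteoclast genes were past the cutoff on the lower side in the androstenone treatment group, with medians of -4.36 and -3.01. The bone values ran from -6.64 (SOST) to -1.53 (RUNX2), and SPP1, BGLAP, IBSP, ALPL, SP7, DMP1, PHEX, MEPE, OMD and the 3 named above were among those between them. The osteoclast genes past it were ACP5, CTSK, MMP9, OSCAR, CALCR, DCSTAMP, OCSTAMP, ATP6V0D2 and ITGB3. Without control 4 the numbers were 2 and 0. Without androstenone 1, 3 or 4 they were 8 each for bone, and for osteoclasts 4, 1, 1 and 0 without androstenone 1 to 4. Of the granulocyte list AZU1, S100A8 and S100A12 passed as higher (1.47, 2.87 and 2.54) and CEBPE as lower (-1.78), with a median of 0.43 over 10 genes. GP6 of the platelet list passed as lower (-1.43), as did LPL (-2.02) and FABP4 (-2.29) of the stroma and adipocyte list, neither of which passed without control 4. That list had 1 call without androstenone 1 or androstenone 2. CSF3R (1.15), LYZ (1.36) and the cell cycle kinase gene CDK1 (1.34) passed as higher. With all libraries, 0 genes of B cell precursors, stem and progenitor cells, mast cells, eosinophils, olfactory neurons or ciliated cells passed in edgeR's quasi-likelihood test, with medians of -0.39, 0.38, -0.40, 0.43, -0.17 and 0.38. None of them had an unadjusted p under 0.05 there. The numbers changed with single libraries left out, except for eosinophils. Without androstenone 4, 3 genes of B cell precursors passed, and without control 3, 2 of stem and progenitor cells and 1 each of mast cells, olfactory neurons and ciliated cells. For mast cells 1 gene also passed without control 1 or control 2, in the likelihood ratio test and in DESeq2. The proliferation list went from 1 gene to 7 without control 2, the platelet list from 1 to 0 without control 2 and to 4 without control 3, and the granulocyte list from 4 to 2 without androstenone 3 or androstenone 4.

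Likeness to the 8 erythroid genes was measured as Pearson's r between log2 CPM of a gene and the mean of the standardized log2 CPM of the members over the 8 libraries, which share sows and differ in depth, so that r is given as a description only. Among 13447 genes that had a symbol and a mean of at least 1 CPM, the 10 with the highest r were ZC3H13, NVL, TUT1, SLC26A1, PPP1R12B, GPX6, PENK, CABS1, MIOX and F5, with r between 0.917 and 0.979. Without control 1, 6 of these 10 remained among the 10 highest.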

How the data were processed

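Reads were trimmed by the authors with fastp (0.23.1), and kallisto (0.48.0) assigned them to transcripts of Sscrofa11.1, Ensembl release 108. The deposited values are an estimated count, unnormalized, and a TPM value for every gene in every library. The sources used here do not give the step from transcripts to genes. Estimated counts were rounded. The 21318 genes whose rounded counts summed to 1 or more were tested with edgeR 4.0.16 (TMM, quasi-likelihood test, condition only, all 8 libraries) in R 4.3.3. The study's cutoff is a p-value under 0.05 with a log2 fold change of 1 or more in size, and Benjamini-Hochberg adjustment ran over all tested genes. Exact permutation tests (70 assignments, log2(TPM + 0.1)) used scipy 1.17.1. Alternatives were the likelihood ratio test, DESeq2 1.42.0, limma 3.58.1 (voom, or log2(TPM + 0.1) and log2(TPM + 1)), RLE, library totals, unrounded counts, filters by filterByExpr or 10 summed counts, a replicate block and each library left out. Code was tested on simulated data. Gene names came from a name table that matched 15527 of 22516 identifiers, and positions from RefSeq. The planned promoter motif search was not run, and some genes of the lists are not reported here. Named genes are the members, the globins, the 3 genes (main lists) or 1 gene (other lists) with the highest mean TPM, genes past the cutoff, and 10 genes by likeness. Other genes given with values (such as TFRC, TAL1, TREML1, LEPR, EBF1, HPGDS, PAX5, FOXJ1, MPO, EPX and the overlapping neighbours) and the ratios to HBB were chosen after values were seen. The members and lists were chosen with earlier results of these data known. No pair of replicate libraries agreed within sampling noise. Differences, as chi-square per degree of freedom, were 112 between androstenone 1 and 2 and 117 between androstenone 3 and 4. The other pairs of that group had 738 to 1119, so its libraries are not equally independent replicates. Whether the closer pairs share a sow is not given.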

Additional observations from a re-analysis of the deposited data

Results flagged for a closer look

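Of 26 groups of 4 libraries checked with Dixon's test (the 8 erythroid genes, HBB, HBM and 3 list sums in TPM, in each group), 2 held a library whose gap to its nearest neighbour exceeded the 95% critical share of the range, where about 1 in 20 groups does so by chance. Both were control 4, which was singled out by its COL1A1 level. These 2 values therefore restate that choice and are a description, not a test. The summed level of the osteoblast and bone matrix genes was 119679 TPM in control 4, and the gap was 0.927 of the range of the control group. The summed level of the osteoclast genes was 7626 TPM in control 4, with a gap of 0.909. No erythroid gene, and neither HBB nor HBM, was set apart in this way.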

How the results depend on the processing

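The call of SLC4A1, the only erythroid gene past the unadjusted cutoff, held in 10 of 19 alternatives. The number of erythroid genes called was 0 with library totals only, with limma on log2(TPM + 0.1) or on log2(TPM + 1), and with the replicate block, and it lay between 0 and 1 with each library left out. After adjustment it was 0 in all 19. The number of called genes over the other lists, 37 as reported, was 11 with limma voom, 12 and 7 with limma on log2(TPM + 0.1) and log2(TPM + 1) and 9 with the replicate block, and it lay between 11 (without control 4) and 47 with each library left out (22, 23, 19 and 21 without androstenone 1 to 4). Over all genes, 1368 passed as reported, 731 and 298 with limma on log2(TPM + 0.1) and log2(TPM + 1), 583 with the replicate block, 2414 without control 3, and 867 and 881 without androstenone 1 and 2. Adjusted calls over all genes were 0 in the quasi-likelihood test, 200 in the likelihood ratio test, 670 in DESeq2 and 0 in limma voom. The erythroid sum of control 4 over the median of the other libraries, 1.36 in TPM, was 0.857 per library total and 0.910 without ALAS2. It stayed close to the TPM value with TMM-scaled CPM, where control 4 had 8.84 CPM against 4.82 to 7.92 CPM elsewhere. With each library left out, log2 fold changes ran from -1.25 to 0.11 for KLF1 (above 0 without control 2), from -1.03 to 0.15 for HBB (above 0 without control 4) and from -0.33 to 0.24 for TRIM10 (above 0 without control 1, control 3, androstenone 3 or androstenone 4). The other members kept their direction in every alternative. Same-numbered libraries did not deviate together (r of -0.035, -0.50, -0.60 and 0.17 over 18347 genes), so the numbers do not pair them, and 0 libraries correlated best with their own number. With the block SLC4A1 had -1.06 (unadjusted p = 0.132 in edgeR). KLF1 gave no value with filterByExpr. The cause of these changes was not tested. Counts of 0 to 11 per erythroid gene in control 1 limit what that library can show.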
